A study of Homo sapiens with 2 samples.

Results

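The GW182 paralogs TNRC6A, TNRC6B and TNRC6C were examined together with the Argonautes AGO1, AGO2 and AGO3 and the microRNA processing factors DROSHA, XPO5, DICER1 and TARBP2, 10 genes of the 18132 that the arrays named. Members were all probe sets that carry 1 of these symbols, with older symbols updated through the Entrez ID, which gave 38 probe sets. The genes were selected on the knockdown minus control differences of these same arrays, the opposite ones of TNRC6A and TNRC6B among them, so their values are a description. The cells were HCT116, an established line from a human colorectal carcinoma, grown in DMEM with serum, and the study looked for expression changes downstream of SUN2. SUN2 spans the inner nuclear membrane and links the nucleus to the cytoskeleton. The SUN2 knockdown group was HCT116 cells carrying the construct labelled shSUN2-1, and the control group was HCT116 cells labelled Scr and NC. Each group held 1 Affymetrix array, the knockdown rested on 1 construct, and both arrays used biotinylated cRNA from 100 ng of total RNA. There is therefore no test, SD between cultures or p-value for any value.

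MicroRNAs are cut from long nuclear transcripts by DROSHA with its partner DGCR8, carried to the cytoplasm by exportin 5 (XPO5), and cut again by DICER1, which works with the RNA-binding protein TARBP2. One strand is kept by an Argonaute protein and guides it to messenger RNAs that pair with the seed of the microRNA. The Argonaute binds a GW182 protein, a scaffold rich in glycine-tryptophan repeats, which brings in the deadenylases that shorten the poly(A) tail and start decay of the message.

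All differences are knockdown minus control after log2(intensity + 16), which brings differences of dim probe sets closer to 0. A gene was represented by its brightest probe set, and it passed the filter when the mean of that probe set over both arrays reached the median of all probe sets, an intensity of 108. This left 12220 genes, with a median difference of -0.0009 and quartiles of -0.08 and 0.11. The only error available is how far probe sets of one gene scatter about their mean. That SD was 0.09 in log2 units, from 5786 genes that had 2 or more probe sets past the filter. It covers probe error within these arrays, and it is too small if probe sets share probes. SUN2 itself read 407.3 in the knockdown array and 497.7 in the control array on its brightest probe set, a difference of -0.28. The 4 SUN2 probe sets that passed the filter were all lower, between -0.39 and -0.07, and the brightest stood at 81.8% of the control array. The dimmest of the 4 passed only through the control array, at 112.5 against 106.5 in the knockdown array. Of 1114 genes with at least 4 probe sets past the filter, 227 were lower on all of them. Of 10 colon epithelial markers 8 passed the filter, 7 of them higher with a median of 0.18, and KRT20 (0.88), KRT8 (0.34) and KRT18 (0.32) were past 1.2-fold. KRT20, on 1 probe set, read 182 in the knockdown array and 91.1 in the control array, so it passed only through the knockdown array. After a loess correction for brightness the median was 0.07, and KRT8 (0.24) and KRT18 (0.21) were under 1.2-fold. Of 21 markers of fibroblasts, immune and endothelial cells 9 passed, all 9 lower with differences between -0.13 and -0.03. Of all genes past the filter, 50.2% were lower. KDR passed only through the control array, at 114 against 104 in the knockdown array. The summed intensity of the 20 markers with a probe set was 2299 in the knockdown array and 2432 in the control array. Their part in the values of the 10 genes was not tested. HCT116 is a single cell line, so the fibroblast, immune and endothelial markers are no measure of such cells. The background control probe sets of the arrays read between 31.4 and 1128 in the knockdown array and between 31.2 and 1425 in the control array. The brightest probe sets of those markers lay within that range.

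Among the 10 genes the GW182 paralogs stood furthest apart. TNRC6A was the highest, at 152.9% of the control array (0.59), and TNRC6B the lowest, at 70.7% (-0.48). The other 7 genes past the filter lay between -0.18 and 0.18. AGO2 did not pass the filter. Of the 9 genes that passed, 1 was at least 1.2-fold higher, where 5.95% of all genes past the filter were, and 1 was at least 1.2-fold lower, where 0.884% were. Those shares stand for 727 and 108 genes, 375 and 242 with quantile scaling, and 475 and 191 after loess. At 1.5-fold the counts were 1 higher, against 0.336% of all genes, and 0 lower, against 0.0245%. None of the 9 reached 2-fold, which 0.0736% of all genes did upwards and 0.00818% downwards. Since these arrays chose the genes, the counts support nothing. The median of the 9 was 0.02, with 5 higher and 4 lower.

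**Figure D1:**
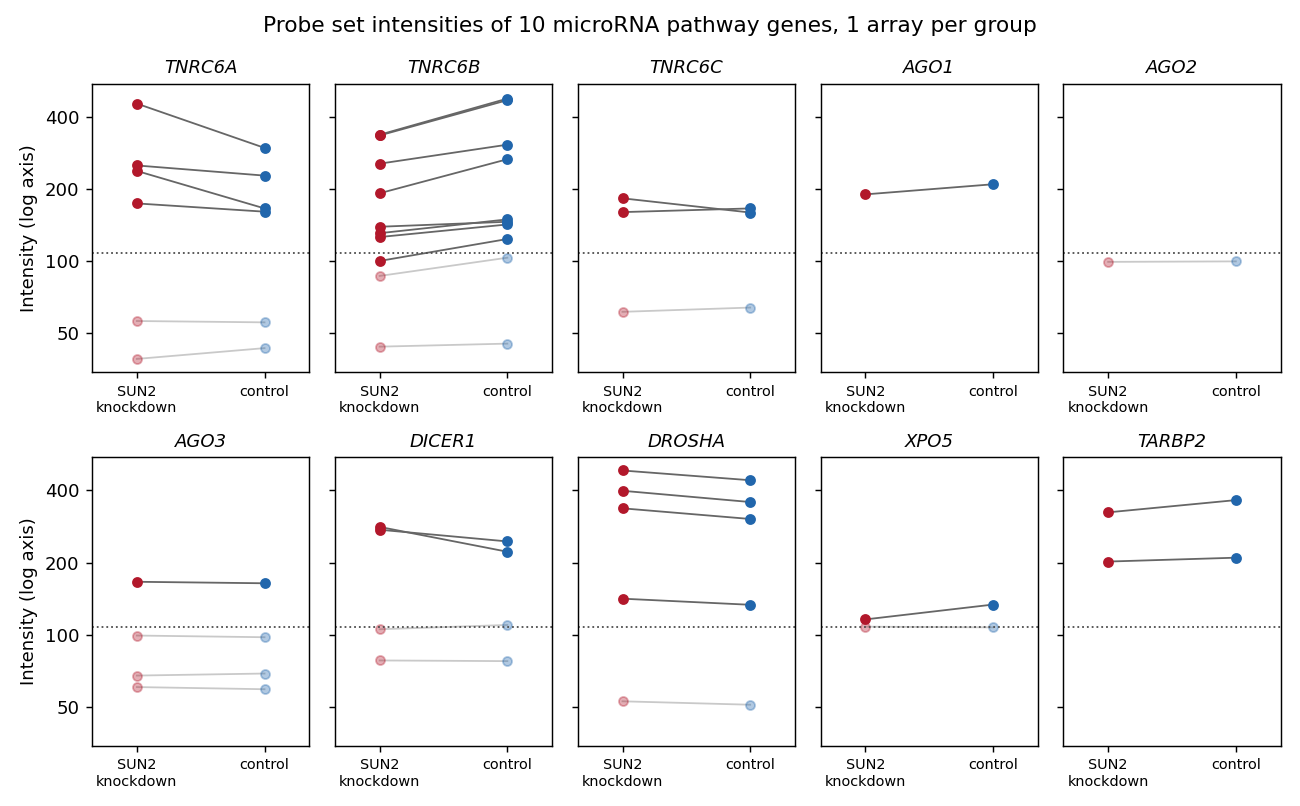
Intensity (log axis) of each probe set of the 10 genes on the SUN2 knockdown array (left, red) and the control array (right, blue), with a line joining the same probe set, the filter at 108 dotted and probe sets below it pale. The 4 bright TNRC6A probe sets slope down to the control array, the 8 bright TNRC6B probe sets slope up, and AGO2 is nearly level.

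TNRC6A encodes the paralog first described as the GW182 autoantigen of cytoplasmic foci. Its brightest probe set read 453 in the knockdown array and 296 in the control array, a difference of 0.59. A second probe set past the filter, of the _s_at class, read 237 and 166 (0.48). The remaining pair read 250 in the knockdown array against 227 in the control array (0.13), and 174 against 161 (0.10). All 4 were higher in the knockdown array, but they fell into a pair near 0.5 and a pair near 0.1. Their mean was 0.33 ± 0.24 (SD, n = 4 probe sets). The spread of 0.48 between the extreme probe sets was large for this array: of 1114 genes with at least 4 probe sets past the filter, 23 had a spread at least as wide, TNRC6A included, and the median spread was 0.17. A shared direction was common: 317 of the 1114 genes were higher on all such probe sets and 227 lower on all. Both probe sets below the filter, at 56.2 and 39.1 in the knockdown array against 55.5 and 43.3 in the control array, differed by 0.01 and -0.11. The mean of all 6 was 0.20, under 1.2-fold, and the brightest probe set no longer reached 1.5-fold with quantile scaling or loess. Of all 12220 genes, 41 stood as high as TNRC6A or higher, itself included. The size of the TNRC6A difference thus depended on which probe set was read, while its direction was shared by those past the filter.

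TNRC6B was lower on all 10 of its probe sets. The brightest pair read 336 and 334 in the knockdown array against 475 and 468 in the control array, differences of -0.48 and -0.47, and may overlap in their probes, which was not checked. Another probe set read 255 in the knockdown array and 305 in the control array (-0.25), and one of the _s_at class 192 and 266 (-0.44). TNRC6B is the paralog with the most probe sets on this array. The next 3 read 139, 131 and 126 in the knockdown array against 146, 149 and 142 in the control array, with differences of -0.06, -0.17 and -0.16. The last past the filter read 100.1 and 124 (-0.27), so it passed only through the control array, where it was higher. The mean of the 8 past the filter was -0.29 ± 0.16 (SD, n = 8 probe sets). Below the filter, 86.7 against 103 gave -0.22 and 44.0 against 45.3 gave -0.03. The mean of all 10 was -0.25, under 1.2-fold. Of 48 genes with at least 8 probe sets past the filter, 7 were lower on all of them and 12 higher on all. Of all 12220 genes, 16 were as low as TNRC6B or lower, itself included.

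TNRC6C, the remaining paralog, read 183 in the knockdown array and 159 in the control array on its brightest probe set (0.18). Its second probe set past the filter read 160 and 166 (-0.05), and the one below the filter differed by -0.05. The probe sets disagreed in direction, so no direction can be given for TNRC6C. The difference of TNRC6A exceeded that of TNRC6B by 1.07 on the log2 scale for the brightest probe sets, a 2.10-fold shift of one paralog against the other. Over the 32 pairings of a TNRC6A with a TNRC6B probe set past the filter, that contrast ran between 0.17 and 1.07 with a median of 0.61.

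**Figure D2:**
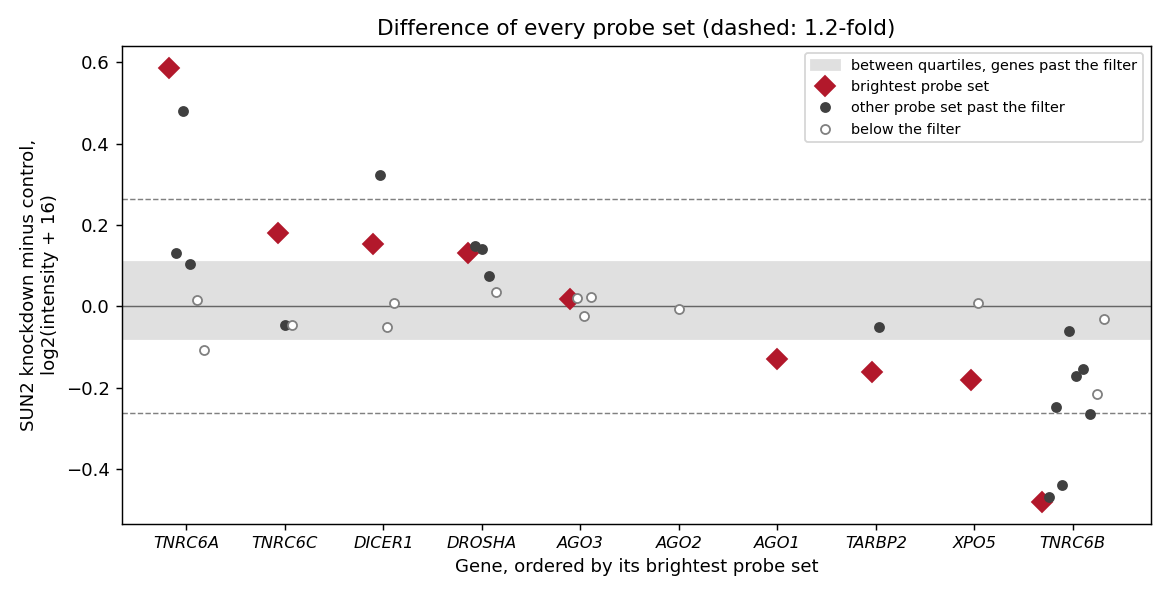
Difference of each probe set, SUN2 knockdown minus control on the log2(intensity + 16) scale, for the 10 genes in the order of their brightest probe sets (red diamonds, where past the filter), with other probe sets past the filter as dark points, those below it as open points, the span between the quartiles of all genes shaded and 1.2-fold dashed. TNRC6A (0.59) and TNRC6B (-0.48) lie at the ends, and the other brightest probe sets lie within 0.18 of 0.

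A background that remains in the values and is the same for every probe set shrinks a difference. It drops out of the slope when the knockdown intensities of a gene are set against its control intensities. For TNRC6B this slope over its 10 probe sets was 0.67, a log2 value of -0.58, and no probe set lay more than 24.7 intensity units from the line. Without the brightest probe set it was 0.69. For TNRC6A the slope over 6 probe sets was 1.51 (0.59), but one probe set lay 55.5 units from the line, and without the brightest the slope was 1.22 (0.29). The largest distance from the line was thus smaller for TNRC6B than for TNRC6A. In log2 differences the TNRC6B probe sets past the filter also spread widely, by 0.42, which 46 of the 1114 genes matched or exceeded, TNRC6B included. The slope was 1.12 for DROSHA with a largest distance of 3.71 units over 5 probe sets, and 1.02 for AGO3 over 4. For DICER1 it was 1.30 (0.38) over 4 probe sets with a largest distance of 21.1 units, and 1.45 without the brightest. SUN2 had a slope of 0.76 over 6 probe sets, nearer to 1 than that of TNRC6B. The slopes were chosen after the values were seen and assume that every probe set of a gene reads the same transcripts. They also assume the same background for all probe sets. The background control probe sets read between 31.4 and 1128 in the knockdown array, broadly higher with more G and C bases. A background that varies between probe sets does not drop out of the slope, and its part was not tested.

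**Figure D3:**
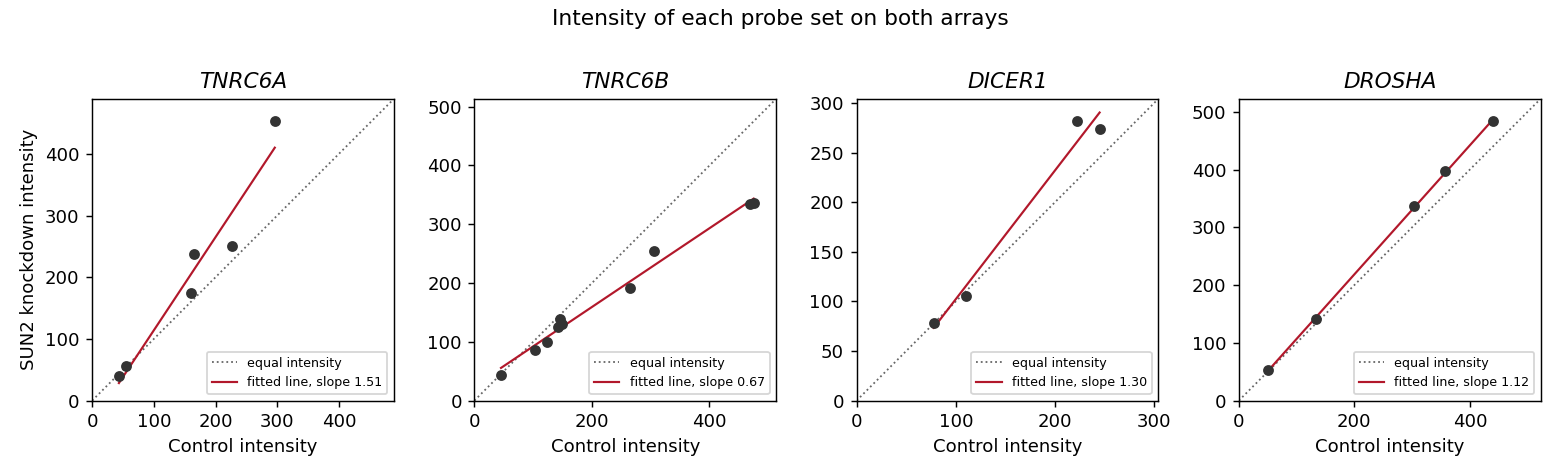
SUN2 knockdown intensity against control intensity for each probe set of TNRC6A, TNRC6B, DICER1 and DROSHA, with the fitted line in red and equal intensity dotted. DROSHA (slope 1.12) and TNRC6B (0.67) lie along their lines, while the TNRC6A probe sets scatter about a line of slope 1.51.

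The upstream sequence of both paralogs is shown because they differed in opposite directions. It is the 250 bases before the annotated start in RefSeq (GRCh38.p14), on the plus strand in both cases, chr16:24729401-24729650 for TNRC6A and chr22:40044584-40044833 for TNRC6B. Capitals mark CCAAT, the box bound by the factor NF-Y, and CCGGAAG, a core of ETS factor sites, each searched on both strands (CCAAT reads ATTGG on the other), and none of the marked matches overlap.
TNRC6A: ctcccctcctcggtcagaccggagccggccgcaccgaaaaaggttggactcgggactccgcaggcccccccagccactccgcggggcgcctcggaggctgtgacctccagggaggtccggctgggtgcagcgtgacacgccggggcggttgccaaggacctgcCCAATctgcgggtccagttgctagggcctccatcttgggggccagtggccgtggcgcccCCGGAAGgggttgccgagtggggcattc
TNRC6B: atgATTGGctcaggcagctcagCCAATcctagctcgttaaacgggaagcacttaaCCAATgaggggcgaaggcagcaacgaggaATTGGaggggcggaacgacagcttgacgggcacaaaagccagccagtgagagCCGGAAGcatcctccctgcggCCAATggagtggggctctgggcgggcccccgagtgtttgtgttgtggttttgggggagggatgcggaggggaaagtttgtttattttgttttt
The TNRC6B window held 5 CCAAT matches and the TNRC6A window 1. Of 35116 RefSeq windows of this length, 32.0% held at least 1 and 0.319% at least 5. DROSHA and 1 window of TARBP2 held 3, and the other windows searched for these genes held at most 2. The windows of TNRC6A and TNRC6B each held 1 CCGGAAG, as did that of AGO3, and 8.52% of all windows held it. G and C made up 56.4% of the TNRC6B window and 71.6% of the TNRC6A window. A match is a string of letters and no evidence of binding.

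The Argonautes showed small differences. AGO1, a guide-bound Argonaute without strong slicer activity, read 190 in the knockdown array and 209 in the control array on its 1 probe set (-0.13). A further probe set that carries both the AGO1 and the AGO3 symbol read 205 and 224 (-0.12), and it is counted for neither gene. AGO2, the Argonaute that cuts perfectly paired targets, had 1 probe set, at 99.2 in the knockdown array and 99.6 in the control array (-0.01). It lay below the filter, and its sign turned with median centring, quantile scaling and loess. AGO3 read 166 in the knockdown array and 164 in the control array (0.02), and its 3 dimmer probe sets lay between -0.02 and 0.02, so its sign depended on the probe set. AGO4, which is no member but completes the family, had 4 probe sets, all below the filter, between -0.11 and -0.00. No Argonaute probe set reached 1.2-fold in either direction.

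The enzymes that cut microRNA precursors were slightly higher in the knockdown array on the probe sets past the filter. DROSHA, the nuclear RNase III enzyme, read 484 in the knockdown array and 441 in the control array on its brightest probe set (0.13). The others past the filter read 398, 336 and 141 in the knockdown array against 357, 304 and 133 in the control array (0.15, 0.14 and 0.08). These 4 agreed closely, with a mean of 0.12 ± 0.03 (SD, n = 4 probe sets) and a spread of 0.07, which 1007 of the 1114 genes with at least 4 such probe sets matched or exceeded, DROSHA included. Higher on all of them were 317 of the 1114 genes. The DROSHA probe sets at 398 and 336 are of the _x_at class. The 4 may overlap in their probes, which was not checked. DICER1, the cytoplasmic RNase III enzyme, read 274 in the knockdown array and 245 in the control array (0.15), and 281 against 222 on a second probe set of nearly equal brightness (0.32). Its probe sets below the filter read 105 against 110 (-0.05) and 78.1 against 77.6 (0.01). DICER1 therefore passed 1.2-fold on 1 of 2 probe sets past the filter. After the loess correction for brightness, DROSHA stood at 0.07 and DICER1 at 0.14.

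XPO5 and TARBP2 were slightly lower on their brightest probe sets. XPO5, which exports precursors in complex with RAN-GTP, read 116 in the knockdown array and 134 in the control array (-0.18), while its second probe set, just below the filter, read 108.1 and 107.4 (0.01). TARBP2, the RNA-binding partner of DICER1, read 324 in the knockdown array and 364 in the control array (-0.16), and 202 against 210 (-0.05). Neither gene reached 1.2-fold on any probe set. DGCR8, the partner of DROSHA, is no member and read 264 in the knockdown array and 279 in the control array (-0.08).

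In the order of the differences, TNRC6A was followed by TNRC6C, DICER1 and DROSHA, then AGO3, then AGO1, TARBP2 and XPO5, then TNRC6B. The gap below TNRC6A was 0.41 and the gap above TNRC6B was 0.30. TNRC6C, DICER1 and DROSHA were 0.03 and 0.02 apart, and AGO1, TARBP2 and XPO5 0.03 and 0.02, less than the SD of 0.09 of a probe set. The gaps on either side of AGO3, 0.11 and 0.15, were not much larger than that SD, and a gap carries the scatter of both its probe sets. Of the 25 probe sets past the filter, 12 were higher and 13 lower. At least 1.2-fold higher were 3 of them, against 6.21% of all probe sets past the filter, and at least 1.2-fold lower were 4, against 0.809%, all 4 of TNRC6B. Among these 4, 1 barely reached 1.2-fold (-0.27) and passed the filter only through the control array, at 124 against 100.1 in the knockdown array. At 1.5-fold 1 was higher, against 0.292% of all probe sets, and 0 lower, against 0.0265%, and none reached 2-fold, against 0.0486% upwards and 0.00442% downwards. The 13 probe sets below the filter lay between -0.22 and 0.04. The 3 genes nearest to TNRC6A in difference and mean log2 intensity were RBM18 (0.54), CACUL1 (0.60) and PBDC1 (0.49), and those nearest to TNRC6B were EIF1B (-0.48), CETN2 (-0.44) and LCLAT1 (-0.35). With 2 arrays such likeness rests on a single difference.

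TNRC6B and SUN2 lie on the same chromosome in RefSeq, with 19 genes past the filter between them. Of those 19, 15 were lower and 4 higher, with a median of -0.05, where 50.2% of all genes past the filter were lower. At least 1.2-fold higher were 2 of the 19, where 5.95% of all genes were, and 0 were at least 1.2-fold lower, where 0.884% were. The median of the 19 lay between the quartiles of all genes, -0.08 and 0.11. A part of position, brightness or background in these values was not tested. The 10 nearest genes past the filter on each side of TNRC6B had a median of -0.03, with 9 of 20 higher, and RPS19BP1 (0.31) was the 1 gene past 1.2-fold. Around SUN2 the median was -0.02, with 8 of 20 higher and APOBEC3B at 0.31. Around TNRC6A it was -0.00, with 10 of 20 higher and RBBP6, the nearest gene past the filter on one side, at 0.27. No neighbour of TNRC6B or SUN2 was at least 1.2-fold lower, and RBBP6 was higher like TNRC6A.

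The other genes of the pathway were read from 8 lists with 151 genes beside the 10, of which 127 passed the filter. Of these, 85 were higher and 42 lower, with a median of 0.05, where 49.8% of all genes past the filter were higher. At least 1.2-fold higher were 8, or 6.30%, close to the 5.95% of all genes, and 1 was at least 1.2-fold lower, where 0.884% of all genes were. These shares of all genes apply to the counts of each list below. After loess 5 were at least 1.2-fold higher, or 3.94%, where 3.89% of all genes were, with 4 genes among the higher ones in both. At least 1.2-fold lower after loess were 2, where 1.56% of all genes were. None of the 127 reached 1.5-fold, and none was as high as TNRC6A or as low as TNRC6B. The brightest 10% of all probe sets had a median difference of 0.10, and a loess correction for brightness brought the medians of 7 of the 8 lists closer to 0, the host transcripts being the exception.

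Nuclear processing and export factors had a median of 0.15, with 7 of 10 higher, and 0.04 after loess. KHSRP, an RNA-binding protein that promotes processing of some precursors, read 1891 in the knockdown array and 1567 in the control array (0.27). SMAD1, which can join the DROSHA complex, stood at 0.22. RCC1, the exchange factor that loads RAN with GTP, read 419 in the knockdown array and 495 in the control array (-0.23), with -0.07 on its other probe set. KHSRP was the 1 gene of this list past 1.2-fold, but not after loess (0.16), where RCC1 was (-0.30).

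Partners of DICER1 and of Argonaute loading were higher in 14 of 15, with a median of 0.08, and in 9 of 15 with a median of 0.02 after loess. TSNAX, a subunit of the C3PO nuclease that removes passenger strand fragments, read 568 in the knockdown array and 442 in the control array (0.35), and 0.37 on its second probe set. The chaperone DNAJC7 stood at 0.23 and HSPA4 at 0.20.

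The CCR4-NOT and PAN2-PAN3 deadenylases, which GW182 proteins recruit, had a median of 0.04, with 14 of 17 higher, and 0.01 after loess. The catalytic subunits, picked after their values were seen, differed by 0.11 for CNOT7, 0.11 for CNOT8, 0.08 for CNOT6, 0.05 for CNOT6L and -0.02 for PAN2. Over the probe sets past the filter CNOT7 and CNOT8 had means of 0.09 and 0.06, but CNOT6 had a mean of -0.07 and CNOT6L of -0.02, so neither of those has a settled direction. CNOT4 and CNOT1, the scaffold, were at 0.13 and 0.12. TOB1, an adaptor of the deadenylase, read 1123 in the knockdown array and 910.2 in the control array (0.30), and 0.24 on its other probe set. It was the 1 gene of this list past 1.2-fold, but not after loess (0.20).

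Decapping factors and other components of P bodies, cytoplasmic foci that hold silenced messages, had a median of 0.05, with 17 of 25 higher. After loess the median was 0.02, with 15 of 25 higher. EIF4E2, a cap-binding protein that represses translation, read 561 in the knockdown array and 385 in the control array (0.53). Its 3 probe sets past the filter lay between 0.01 and 0.56. DDX6, an RNA helicase that links CCR4-NOT to decapping, read 1081 in the knockdown array and 819 in the control array (0.39) on its 1 probe set past the filter. LSM1, of the ring that binds deadenylated ends, stood at 0.21. EIF4E2 and DDX6 were the 2 genes of these 25 past 1.2-fold, where 5.95% of all genes were. None was past it downwards, where 0.884% of all genes were.

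MicroRNA tailing and turnover factors had a median of 0.04, with 5 of 10 higher and none past 1.2-fold. PNPT1, a mitochondrial exonuclease, stood at 0.26, the nuclear exonuclease XRN2 at 0.14 on probe sets from -0.04 to 0.35, and DIS3L2 at 0.13 with -0.10 on its other probe set. Proteins that modify, localise or work beside Argonautes had a median of 0.04, with 9 of 13 higher, but -0.02 with quantile scaling and -0.01 after loess. PTPN1, a phosphatase that acts on AGO2, stood at 0.31 (0.24 after loess, under 1.2-fold) with -0.08 on its second probe set, FXR1 at 0.24 with -0.01 on its second, and P4HB at 0.19 with all 6 probe sets between 0.13 and 0.30.

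**Figure D4:**
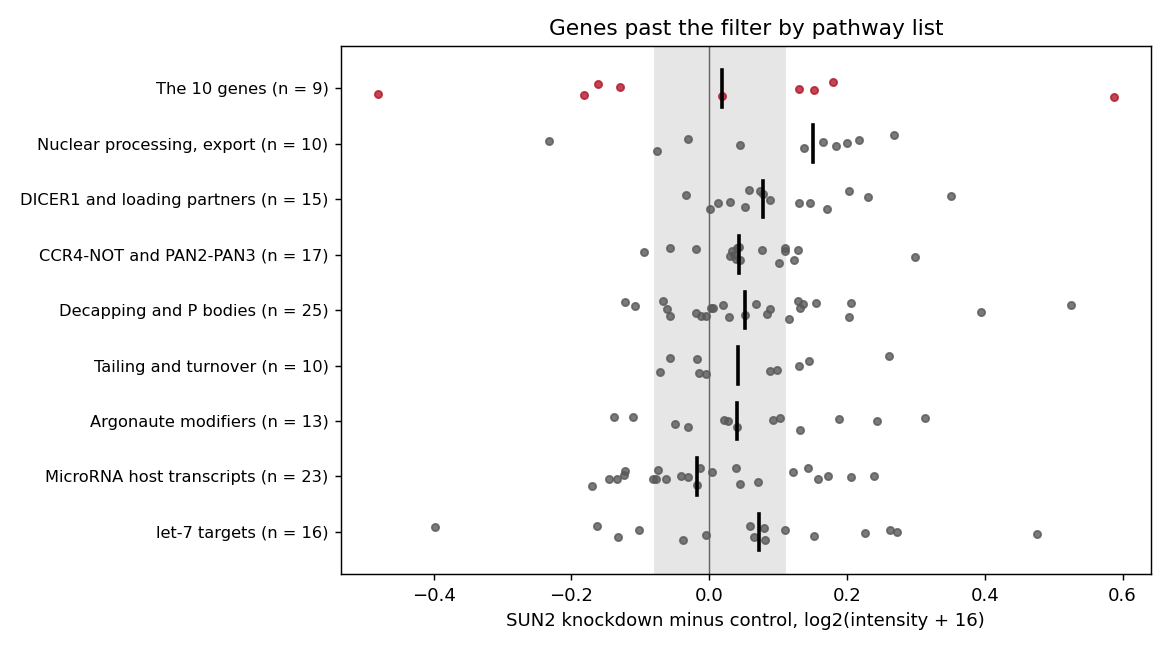
Difference of each gene past the filter, SUN2 knockdown minus control on the log2(intensity + 16) scale, for the 10 genes (red) and the 8 pathway lists (grey), with list medians as black bars and the span between the quartiles of all genes shaded. TNRC6A and TNRC6B lie outside the range of every other gene shown, and list medians lie between -0.02 and 0.15.

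The arrays did not measure mature microRNAs, but several are cut from introns of genes that were measured. The list of host transcripts had a median of -0.02 (0.00 with median centring), with 10 of 23 higher and none past 1.2-fold in either direction. PTK2, a focal adhesion kinase (0.24), NFYC, a subunit of NF-Y (0.21), and SMC4, a condensin subunit (0.17), had the largest differences. Over all 3 probe sets of PTK2 the mean was 0.09. The other NFYC probe set past the filter stood at 0.02, and the 4 of SMC4 lay between 0.02 and 0.23. The PANK and SREBF hosts were picked after their values were seen, because each family carries microRNAs with a shared seed. Their mature sequences from RefSeq (GRCh38.p14) are given 5′ to 3′ with the seed, bases 2 to 8, in capitals.
miR-107 in PANK1, chr10:89592756-89592778, minus strand: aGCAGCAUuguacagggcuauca
miR-103a-3p in PANK2, chr20:3917541-3917563, plus strand: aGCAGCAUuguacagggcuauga
miR-33b-5p in SREBF1, chr17:17813897-17813916, minus strand: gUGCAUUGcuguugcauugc
miR-33a-5p in SREBF2, chr22:41900949-41900969, plus strand: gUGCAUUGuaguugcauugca
PANK1 read 126 in the knockdown array and 120 in the control array (0.07), and PANK2 204 against 186 (0.12), with its 4 probe sets between -0.06 and 0.12. PANK3, which carries a second copy of miR-103a, read 157 in the knockdown array and 173 in the control array (-0.13), with 0.20 on its other probe set past the filter. SREBF1 read 331 in the knockdown array and 295 in the control array (0.16), with -0.01 on its other probe set past the filter, and SREBF2 202 against 229 (-0.17), with all 3 SREBF2 probe sets lower. All 5 hosts were within 1.2-fold on their brightest probe sets, and the probe sets of PANK2, PANK3 and SREBF1 did not share a direction.

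Known targets of let-7, a microRNA family that restrains growth genes, had a median of 0.07, with 10 of 16 higher, but -0.01 with quantile scaling and 0.01 after loess. The sequence of let-7a-5p is shown because these genes are known for sites that pair with its seed, in capitals (RefSeq, GRCh38.p14, chr9:94175962-94175983, plus strand).
let-7a-5p: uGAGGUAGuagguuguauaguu
MYC, a growth-promoting transcription factor, read 898 in the knockdown array and 642 in the control array (0.48) on its 1 probe set. IGF2BP3 stood at 0.27, and at 0.19 after loess, under 1.2-fold. HMGA2, a chromatin protein whose message carries several let-7 sites, read 684 in the knockdown array and 906 in the control array (-0.40), and its other probe sets past the filter were lower as well, up to -0.07. The targets with the largest differences went in opposite directions, and DICER1, itself a let-7 target and a member, stood at 0.15.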

How the data were processed

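RNA from 1 SUN2 knockdown culture and 1 control culture of HCT116 cells was hybridised to 1 Affymetrix array each. The deposited values are linear intensities per probe set. MAS5 and RMA are named, per the submitters' processing notes, without a role or version, and how the authors scaled one array to the other is unknown here. Gene names came from the platform annotation, updated by Entrez ID through RefSeq (GRCh38.p14), which matched 44961 probe sets. That table also gave gene order, and RefSeq gave the sequences. Of 49293 probe sets other than controls, 44988 carried 1 symbol, 1832 several and 2473 none, and only those with 1 were used.

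Differences are log2(intensity + 16), knockdown minus control, with no further scaling, computed in Python 3.11.15 with pandas 2.3.3. The brightest probe set stood for a gene, and the filter was the median intensity over both arrays. With 1 array per group no test was possible, so genes were counted past 1.2-, 1.5- and 2-fold. Calculations were tested on simulated data. The number of arrays limits the precision, and probe set scatter leaves out the spread between cultures. The 10 genes, the lists and the alternatives were chosen with earlier results of these data known. Named genes were the 10 with all probe sets, SUN2, SUN1, AGO4, DGCR8, the 3 largest differences in each list and any past 1.5-fold, the 3 genes nearest to each of TNRC6A and TNRC6B, and neighbours past 1.2-fold. Alternatives were median centring, quantile scaling, loess (span 0.3) and normexp (limma 3.58.1 in R 4.3.3), the mean or median of probe sets, leaving out _x_at and _s_at probe sets, filters at no, the 25th or the 75th percentile, and pseudocounts of 1 and 64.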

Additional observations from a re-analysis of the deposited data

How the results depend on the processing

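Under 12 planned settings and the slope over probe sets, which was chosen after seeing the data, no gene past 1.2-fold changed sign among the 10. AGO2 (-0.01) reached 0.03 with loess, AGO3 (0.02) -0.02 without _x_at and _s_at probe sets, and 4 list medians near 0 changed sign under 1 or 2 settings each. TNRC6A ran between 0.20 and 0.65 and TNRC6B between -0.58 and -0.25. Averaged over all probe sets, TNRC6A stood at 0.20, TNRC6B at -0.25 and their contrast at 0.46, so that 0 genes were at least 1.2-fold higher and 0 lower. With the median of probe sets past the filter they stood at 0.31, -0.26 and 0.56, and 0 genes were at least 1.2-fold lower. The slope gave -0.58 for TNRC6B, and 0.38 for DICER1 in place of 0.15, past 1.2-fold. The contrast was 1.17 with normexp and 0.95 with a pseudocount of 64. TNRC6A, just past 1.5-fold, no longer passed it with quantile scaling, loess, the mean, the median or a pseudocount of 64, which left 0 genes there. The 75th percentile filter left 3 genes higher in place of 5 because it took dimmer genes out, and no difference changed. For all genes the counts past 1.2-fold, 727 higher and 108 lower, became 375 and 242 with quantile scaling, 475 and 191 with loess, 1018 and 179 with normexp, 373 and 47 with the probe set mean, and 503 and 59 with a pseudocount of 64. Of the lists, nuclear processing had a median of 0.05 with quantile scaling and 0.04 with loess, in place of 0.15. Apart from what the settings themselves construct, the cause was not tested. No paired analysis was possible because there is a single array of either kind, so no replicate could be left out. Low signal limits the dim probe sets: AGO2 and all 4 of AGO4 lay below the filter.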

Other observations

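SUN1, the paralog of SUN2 in the inner nuclear membrane, read 657 in the knockdown array and 560 in the control array on its brightest probe set (0.22), with its 4 other probe sets below the filter and between -0.07 and 0.02. The hosts of the miR-26 family, picked after their values were seen, stood at -0.08 for CTDSP1, -0.06 for CTDSP2 and 0.14 for CTDSPL. Of the 23 background control probe sets, 20 were lower in the knockdown array, with a median difference of -0.04. The difference went from 0.01 at 3 G and C bases to -0.33 at 25. Controls with 17 or more such bases read above the filter of 108, so passing it is no proof of expression. AGO1 (-0.13) and TARBP2 (-0.16) lay within the span of the control differences. XPO5 (-0.18) and the brightest SUN2 probe set (-0.28) did so only through the control with 25 such bases. The next lowest control difference was -0.16, at 24 bases. Other SUN2 probe sets past the filter, at -0.36 and -0.39, lay below the span. A part of background in these genes was not tested.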
